A study of Mus musculus with 2 samples.

Results

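The m6A writers and erasers were 8 genes, chosen by name as the rows of both deposited matrices for Alkbh5, Fto, Mettl3, Mettl14, Wtap, Zc3h13, Rbm15 and Cbll1. They were 8 of 36547 genes listed in the 2 matrices together, and each had at least 1 UMI in each library. The study sequenced RNA of single testis cells from C57BL/6 mice 12 weeks old, in 1 wild-type (WT) library and 1 Alkbh5-/- (KO) library. KO animals were homozygous offspring of heterozygous parents, with no Cre driver named, and no treatment is named for either group. The methods speak of several animals per genotype and the introduction of a single one, so a library may pool mice, and no KO to WT difference below has a replicate.

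N6-methyladenosine (m6A) is a methyl mark that a nuclear complex places on adenosines of newly made RNA. METTL3 carries the methyltransferase activity, METTL14 holds the RNA beside it, and WTAP, ZC3H13, RBM15 and CBLL1 keep the complex in the nucleus and bring it to its targets. ALKBH5 and FTO are the demethylases that take the mark off again. Male mice without ALKBH5 are known to be infertile, and germ cells depend on the writers from the spermatogonial stage onwards.

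The 8 genes lie apart in the mouse genome (GRCm38). Alkbh5 spans 60536381 to 60558512 on chromosome 11 and Fto spans 91313525 to 91668439 on chromosome 8, both on the plus strand. Zc3h13 lies at 75284373 to 75344426 and Mettl3 at 52294841 to 52305128, both on chromosome 14. Mettl14 lies at 123368297 to 123386108 and Rbm15 at 107325421 to 107333673 on chromosome 3. Wtap lies at 12966796 to 12994169 on chromosome 17 and Cbll1 at 31484829 to 31499616 on chromosome 12. The strand used in counting is not given in the sources used here, so reads of Mettl3 cannot be told apart from those of Tox4, which overlaps it on the opposite strand. The same holds for Cbll1 with the antisense gene Gm29542 and for Fto with the antisense genes 4831440D22Rik and Gm3235.

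The promoters of the 2 erasers are shown because these genes had different courses through spermatogenesis. Each is the RefSeq window (GRCm38.p6, plus strand) of 250 bases before and 50 after the start, at chr11:60537433-60537732 for Alkbh5 and chr8:91313275-91313574 for Fto, and capitals mark a CCAAT box.
Alkbh5: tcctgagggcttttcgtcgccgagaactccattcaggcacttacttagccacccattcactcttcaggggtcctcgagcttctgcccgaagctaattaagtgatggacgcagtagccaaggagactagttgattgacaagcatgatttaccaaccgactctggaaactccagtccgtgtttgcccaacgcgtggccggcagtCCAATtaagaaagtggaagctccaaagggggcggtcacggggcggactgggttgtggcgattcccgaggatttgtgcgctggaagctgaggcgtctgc
Fto: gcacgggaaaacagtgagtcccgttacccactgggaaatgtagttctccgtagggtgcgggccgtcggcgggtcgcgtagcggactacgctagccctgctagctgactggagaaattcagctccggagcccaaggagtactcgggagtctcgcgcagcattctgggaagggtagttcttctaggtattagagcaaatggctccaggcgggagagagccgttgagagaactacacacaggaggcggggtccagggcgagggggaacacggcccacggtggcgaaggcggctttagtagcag
The Alkbh5 window held 18 CpG and 55.3% G and C, and the Fto window held 23 CpG and 60.7% G and C, against a median of 7 CpG over 32851 promoters. Both strands were searched for the letters CCAAT, TGACGTCA (the CRE element), AACNGTC (bound by A-MYB) and TATAAA. The Alkbh5 start used by RefSeq differs from the start of the GENCODE gene. Promoter windows were found for 7 of the 8 genes, all but Mettl14. CCAAT was present for Alkbh5, Wtap (in 2 of its 3 windows) and Rbm15, and in 37.4% of all promoters. AACNGTC was present for Mettl3 only among these genes, and in 8.01% of all promoters. TGACGTCA, held by 1.79% of all promoters, and TATAAA, held by 13.6%, were in none of the windows of these genes.

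The WT library held 5756 barcodes with a median of 10905.5 UMIs and the KO library 7012 barcodes with a median of 9117.5 UMIs; 45 barcode sequences occurred in both. A UMI is a molecular tag counted once per captured RNA, and levels are given as UMIs per 1000000 UMIs of the summed cells (CPM) with exact 95% Poisson intervals, which cover counting error only. The cells fell into 15 clusters, named by marker genes, of which 11 of 24 to 26 of 26 were detected. They are given by class and, within a class, by their score of late over early germ cell markers. The germ cell order was spermatogonia-like, early spermatocyte-like, late spermatocyte-like (a Piwil1 and a Pabpc6 cluster), round spermatid-like (Ssxb2, Tssk5 and Cd46 clusters) and elongating spermatid-like (Fam71b, Tnp1, Prss58 and Spem1 clusters). The Tnp1 and Prss58 clusters had nearly the same marker score (9.06 and 9.43 on the log2 scale), so their order is loose. The somatic clusters were Leydig-like, Sertoli-like, macrophage-like and endothelial-like. None of the 8 genes was among the 2000 features used to integrate and cluster the cells, so 0 of them had shaped the clusters directly. Names were rebuilt here and may differ from those of the study, which kept fewer cells than the matrices hold. Scrublet called 244 WT and 345 KO cells doublets, and they were kept.

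Alkbh5, the gene targeted in the KO, was nearly absent from the KO library. Of its UMIs, 607 were in the WT library and 5 in the KO library, or 7.56 and 0.0609 CPM, a log2 ratio of -6.96 (-8.58 to -5.72). The 5 KO UMIs lay in the spermatogonia-like (1), Cd46 (1), Fam71b (2) and Prss58 (1) clusters. Where the KO had 0 UMIs, the exact interval of the log2 ratio lay below -5.80 in late spermatocyte-like cells (256 UMIs in WT), below -5.96 in Leydig-like cells (25 UMIs) and below -2.75 in Sertoli-like cells (4 UMIs). Spermatogonia-like cells went from 116 UMIs to 1, a log2 ratio of -9.15 (-14.46 to -6.64). The low level in KO thus held in each class with many WT UMIs and fits the labels of both libraries.

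In the WT library Alkbh5 was highest at the start of spermatogenesis. Its level was 67.7 CPM (55.9 to 81.2) in spermatogonia-like and 49.6 CPM (26.4 to 84.8) in early spermatocyte-like cells, which did not differ beyond counting error. It was 19.0 CPM (15.4 to 23.2) and 17.9 CPM (15.3 to 20.9) in the Piwil1 and Pabpc6 late spermatocyte-like clusters. Round spermatid-like cells had 11.6 CPM (9.56 to 14.0) in the Ssxb2, 3.88 CPM (2.87 to 5.13) in the Tssk5 and 1.27 CPM (0.656 to 2.22) in the Cd46 cluster. The level thus came down in steps, and the 4 elongating spermatid-like clusters had 0.287 to 0.826 CPM from 3 to 6 UMIs each. From spermatogonia-like to elongating spermatid-like cells the log2 change was -6.86 (-7.66 to -6.14). Late spermatocyte-like cells held 42.2% of all Alkbh5 UMIs of the WT library and 17.8% of its germ cell UMIs. Among somatic cells, Alkbh5 was at 24.1 CPM (15.6 to 35.6) in Leydig-like, 8.62 CPM (2.35 to 22.1) in Sertoli-like and 9.7 CPM (2.0 to 28.4) in macrophage-like cells.

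Fto, the other eraser, was highest in round spermatids. In WT its level was 75.7 CPM (70.3 to 81.5) in the Cd46, 57.1 CPM (53.0 to 61.4) in the Tssk5 and 55.1 CPM (49.0 to 61.9) in the Fam71b cluster. In KO the same clusters had 67.8 CPM (62.3 to 73.6), 45.3 CPM (41.4 to 49.6) and 60.8 CPM (54.0 to 68.3). The highest value was in the Cd46 cluster in both libraries, but in KO it did not differ from the Fam71b cluster beyond counting error (log2 ratio 0.16, -0.05 to 0.37).

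On either side of these clusters Fto was lower. Spermatogonia-like cells had 23.3 CPM (16.7 to 31.8) in WT and 21.7 CPM (18.7 to 25.1) in KO. The Piwil1 late spermatocyte-like cluster had the lowest WT level of a germ cell cluster with a UMI, 12.0 CPM (9.21 to 15.5), and 7.82 CPM (5.61 to 10.6) in KO. The early spermatocyte-like cells had 0 Fto UMIs in WT, an exact interval of 0 to 14.1 CPM, and 12.6 CPM (6.27 to 22.5) in KO. From late spermatocyte-like to round spermatid-like cells the log2 change was 1.84 (1.63 to 2.06) in WT and 1.75 (1.51 to 2.01) in KO. Round spermatid-like cells held 61.1% of the Fto UMIs in WT and 49.9% in KO. Macrophage-like cells had a WT level of 58.2 CPM (34.5 to 92) from 18 UMIs of 309235, beside 32.1 CPM (20.4 to 48.2) from 23 UMIs in KO. The WT cells so named held 9 Fto UMIs of 264382 without integration and 22 of 589878 at the finer resolution of 0.8, a lower level. These cells also carried elongating spermatid markers at 33.6% (WT) and 23.9% (KO) of the markers' own level, as a median over 26 markers, and the part of such RNA in the Fto value was not tested.

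**Figure D1:**
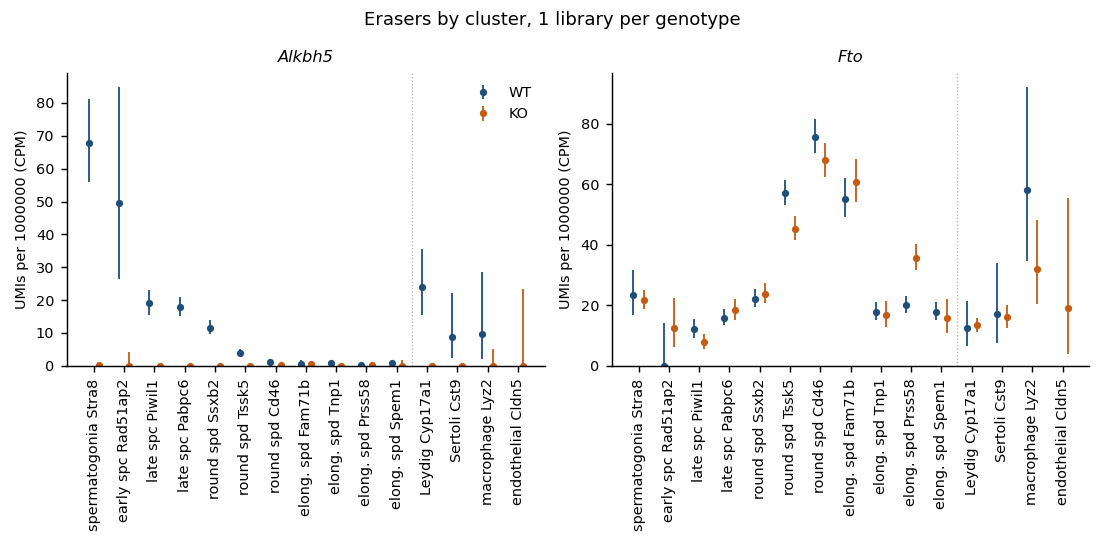
Level of the 2 erasers in each cluster with at least 20 cells, as CPM (vertical axis, from 0) with exact 95% Poisson intervals, in the WT (blue) and KO (orange) library; the dotted line parts germ from somatic clusters, and spc and spd stand for spermatocyte and spermatid. Alkbh5 goes from 67.7 CPM in WT spermatogonia to below 1 CPM in elongating clusters and lies near 0 in KO, while Fto is highest in the Cd46 cluster at 75.7 CPM in WT and 67.8 CPM in KO.

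The catalytic pair of the writer complex was highest in the early germ cells. Mettl3, which encodes the methyltransferase, had few UMIs (63 and 146 in WT and KO). It was at 11.1 CPM (6.68 to 17.3) in WT and 8.48 CPM (6.62 to 10.7) in KO spermatogonia-like cells. It was at 2.37 CPM (1.22 to 4.14) in WT and 2.1 CPM (1.05 to 3.75) in KO cells of the Piwil1 cluster. Elongating spermatid-like cells had 2 Mettl3 UMIs in WT and 0 in KO. No pair of neighbours in the order of its levels differed beyond counting error in either library when germ and somatic clusters were ranked jointly. Along the germ cell order in WT, the steps from early spermatocyte-like cells to the Piwil1 cluster (-2.69, -4.41 to -0.60) and from there to the Pabpc6 cluster (-1.82, -3.52 to -0.29) had log2 intervals below 0. In Sertoli-like cells of the KO it was at 5.48 CPM (3.58 to 8.03).

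For Mettl14, the RNA-binding partner of METTL3, 183 WT and 644 KO UMIs were counted. It was at 39.1 CPM (30.3 to 49.7) in WT and 38.7 CPM (34.6 to 43.1) in KO spermatogonia-like cells. Early spermatocyte-like cells had 38.1 CPM (18.3 to 70.2) in WT and 54.8 CPM (40.4 to 72.7) in KO. The Piwil1 cluster had 6.52 CPM (4.49 to 9.15) in WT and 10.1 CPM (7.57 to 13.2) in KO, and every later germ cell cluster was below 5 CPM in both libraries. Of the WT germ cell steps with an interval that excluded 0, the largest lay between the early spermatocyte-like cells and the Piwil1 cluster, a log2 ratio of 2.55 (1.36 to 3.6).

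Among the adaptors, Wtap and Zc3h13 followed the same early course. Wtap, the subunit that holds the catalytic pair in nuclear speckles, was at 46.1 CPM (36.5 to 57.5) in WT and 53.3 CPM (48.4 to 58.4) in KO spermatogonia-like cells. It was at 5.73 CPM (3.84 to 8.23) in WT and 8.58 CPM (6.26 to 11.5) in KO cells of the Piwil1 cluster. All later germ cell clusters had at most 2.62 CPM in WT and 2.31 CPM in KO.

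Zc3h13, which anchors the complex in the nucleus, had a second and smaller maximum at the passage from round to elongating spermatids. It was at 127 CPM (111 to 145) in WT and 173 CPM (165 to 183) in KO spermatogonia-like cells and at 107 CPM (71.0 to 154) and 211 CPM (182 to 244) in early spermatocyte-like cells. The Pabpc6 late spermatocyte-like cluster had 1.57 CPM (0.858 to 2.63) in WT and 1.98 CPM (1.02 to 3.45) in KO, among the lowest of its levels. It was then higher again in the Cd46 cluster, 10.5 CPM (8.51 to 12.7) in WT and 14.5 CPM (12.0 to 17.3) in KO. The Fam71b cluster had 19.7 CPM (16.0 to 23.8) in WT and 15.5 CPM (12.2 to 19.5) in KO, and the Tnp1 cluster only 1.01 CPM (0.436 to 1.99) and 2.46 CPM (1.13 to 4.67). The second maximum thus appeared in both libraries and in the clusters where Fto was also high.

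Rbm15 and Cbll1 stayed high through meiosis. Rbm15 encodes an RNA-binding protein that brings the complex to its targets. It was at 25.7 CPM (18.7 to 34.5) in WT and 24.1 CPM (20.9 to 27.7) in KO spermatogonia-like cells and at 21.0 CPM (18.1 to 24.2) and 25.4 CPM (21.5 to 29.7) in the Pabpc6 cluster. Between these the Piwil1 cluster was lower, with 11.7 CPM (8.87 to 15) in WT and 12.6 CPM (9.74 to 16.0) in KO. The Pabpc6 cluster exceeded the Piwil1 cluster in WT by a log2 ratio of 0.85 (0.42 to 1.3). Cbll1, which encodes the ubiquitin ligase HAKAI, was at 32.7 CPM (24.7 to 42.4) in WT and 34.3 CPM (30.4 to 38.5) in KO spermatogonia-like cells. It was still at 29.2 CPM (25.9 to 32.9) in WT and 30.1 CPM (26.5 to 34.1) in KO cells of the Ssxb2 round spermatid-like cluster. The level was 13.9 CPM (11.9 to 16.1) in WT and 16.1 CPM (13.8 to 18.7) in KO in the Tssk5 cluster. It was 2.86 CPM (1.88 to 4.16) and 1.32 CPM (0.659 to 2.36) in the Cd46 cluster, so that the drop of Cbll1 lay inside the round spermatid stage.

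**Figure D2:**
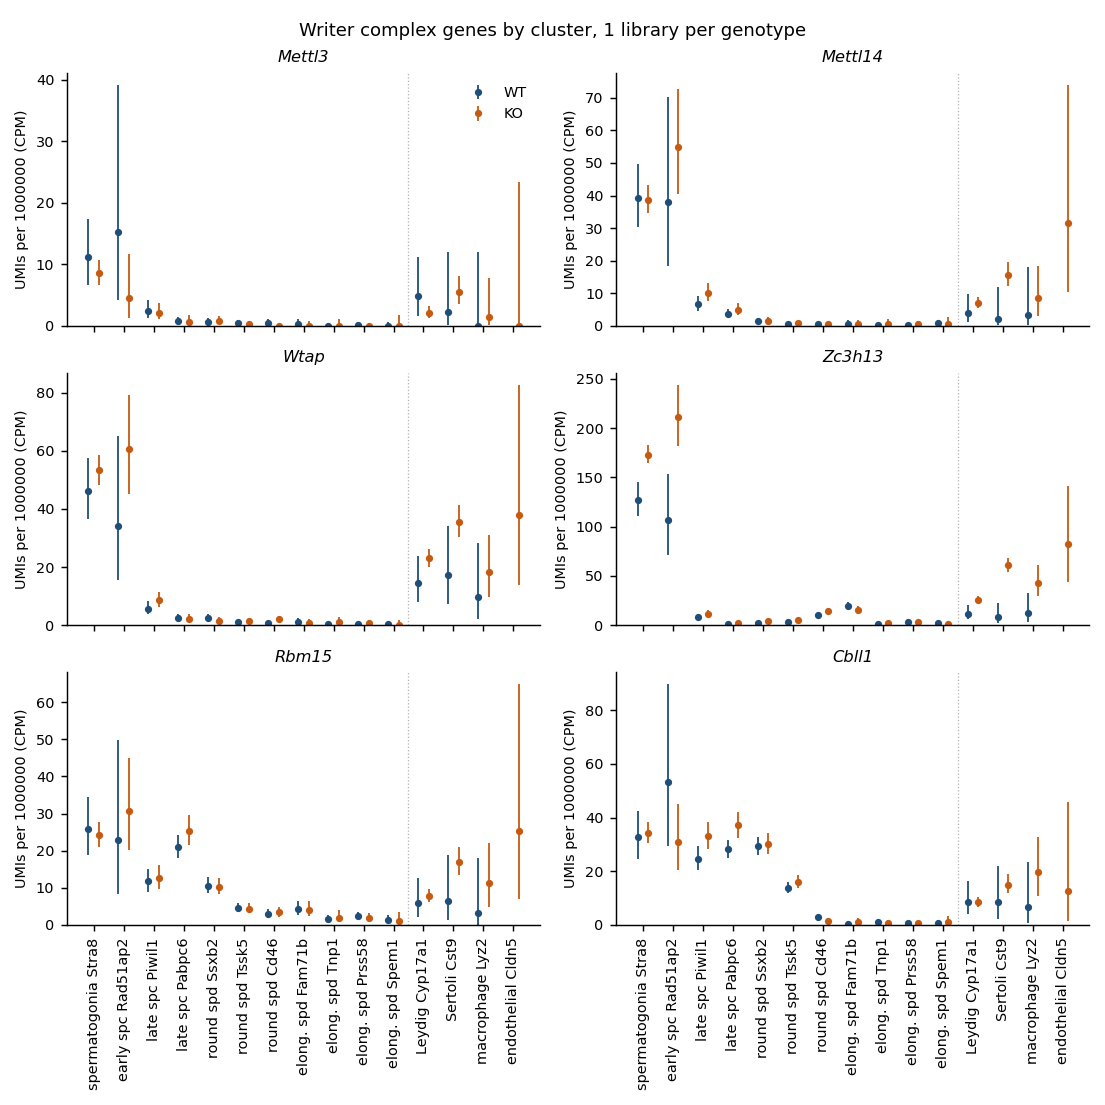
Level of the 6 writer complex genes in each cluster with at least 20 cells, as CPM (vertical axis, from 0, scaled per gene) with exact 95% Poisson intervals, in WT (blue) and KO (orange). Among germ cell clusters Mettl3, Mettl14, Wtap and Zc3h13 are highest in the first 2, Zc3h13 has a second maximum of 19.7 CPM in the WT Fam71b cluster, and Rbm15 and Cbll1 remain high up to the late spermatocyte and early round spermatid clusters.

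The stage at which each gene left its high level therefore differed within the complex. In the Pabpc6 cluster Rbm15 was at 81.7% of its highest WT level, Cbll1 at 52.7%, Alkbh5 at 26.5%, Mettl14 at 9.46%, Wtap at 5.59%, Mettl3 at 4.41% and Zc3h13 at 1.23%. In KO this cluster held the highest Cbll1 level (100%), with Rbm15 at 82.3%, Mettl14 at 8.71%, Mettl3 at 7.77%, Wtap at 3.81% and Zc3h13 at 0.935%. In both libraries Rbm15 and Cbll1 were thus still high where the other writers had gone below 10% of their top level. The tops of Cbll1 (53.4 CPM, 29.2 to 89.6, 14 UMIs) and Mettl3 (15.3 CPM, 4.16 to 39.1, 4 UMIs) in WT lay in the 34 early spermatocyte-like cells, and the Cbll1 level in the Pabpc6 cluster (28.1 CPM) was close to that in spermatogonia-like cells (32.7 CPM). Such shares compare each gene with itself, and levels of different genes were not compared.

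**Figure D3:**
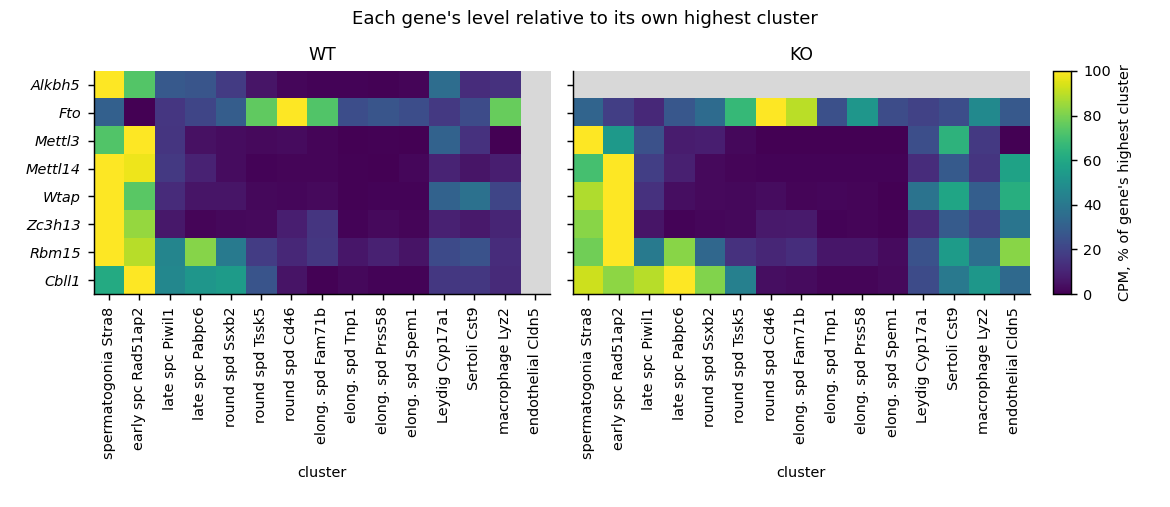
Level of each gene in each cluster as a percent of its own highest CPM among clusters with at least 20 cells (colour, 0 to 100), in WT (left) and KO (right); grey marks clusters of under 20 cells and Alkbh5 in KO. In WT the Pabpc6 column holds 81.7% for Rbm15 and 1.23% for Zc3h13, and Fto alone is brightest in the Cd46 column.

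Correlation of log2(CPM + 1) over clusters was computed as a description over 14 WT and 15 KO clusters that share libraries and differ in depth. Fto had a negative r with each of the other genes, from -0.68 with Mettl3 to -0.35 with Zc3h13 in WT and from -0.54 with Mettl14 to -0.15 with Zc3h13 in KO. Mettl3 with Mettl14 had r of 0.91 in WT and 0.78 in KO, Mettl14 with Wtap 0.89 and 0.95, and Rbm15 with Cbll1 0.89 and 0.87. Alkbh5 was closest to Cbll1 (0.91) and Mettl14 (0.90) in WT. Between the libraries the profiles of the 7 genes other than Alkbh5 had r over 14 clusters from 0.713 for Fto to 0.974 for Wtap.

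Of 12246 genes with at least 200 WT UMIs, the 3 with the most similar WT profile were found for each of the 8 genes. Alkbh5 was most like Wdr61 (0.989), Rbm8a (0.988) and Rpl4 (0.988). Fto was most like Uck2 (0.954 in WT, 0.733 in KO), Cnbd2 (0.929, 0.754) and Gga2 (0.926, 0.743). Mettl3 was most like Plaa (0.985 in WT, 0.889 in KO) and Nfyb (0.985, 0.851). Mettl14 was most like Rps28, Mcm6 and Papolg (0.973 to 0.976), and Wtap most like 2210016F16Rik, Fkbp3 and Rps6kb1 (0.984 to 0.988). Zc3h13 was most like Ncbp3 (0.935 in WT, 0.952 in KO), Tsr1 (0.927, 0.661) and Nup93 (0.919, 0.799). Rbm15 was most like Sbno1 (0.965 in WT, 0.756 in KO), Incenp (0.963, 0.672) and Zbtb11 (0.961, 0.938). Cbll1 was most like Erh (0.990 in WT, 0.984 in KO), Smu1 (0.985, 0.975) and Ppid (0.983, 0.963), with little change between the libraries.

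From spermatogonia-like to elongating spermatid-like cells, 6 of the 7 genes with at least 50 UMIs in both classes together were at least 4-fold lower in WT, all but Fto, where 41.6% of 11189 genes were. In KO 6 of 7 were as well, again all but Fto, where 49.8% of 13530 genes were. Mettl3 was not assessed in WT and Alkbh5 not in KO, for want of UMIs. Only the spermatogonia-like cells, where they were high, brought Alkbh5, Mettl14, Wtap and Cbll1 to 50 UMIs in WT. In KO the same held for Mettl3, Mettl14, Wtap, Rbm15 and Cbll1, so the counts have no weight beyond the single ratios. The median log2 change over the assessed genes was -5.59 in WT and -5.60 in KO, beside -1.09 and -1.98 over all genes. Mettl14 had a log2 ratio of -6.78 (-7.85 to -5.85) in WT and -6.15 (-7.23 to -5.26) in KO, and Wtap of -6.57 (-7.47 to -5.76) and -6.13 (-7.01 to -5.37). Rbm15 had the smallest decrease, -3.52 (-4.09 to -2.94) in WT and -3.37 (-3.88 to -2.89) in KO. For Fto it was 0.10 (-0.36 to 0.59) in WT and 0.73 (0.49 to 0.97) in KO. The median level of spermatogonia markers in elongating spermatid-like cells was 0.328% of their own level in WT (14 markers) and 1.79% in KO (20 markers), and how much of the low remainder of these genes came from such RNA was not tested.

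The related genes of the pathway mostly had the same direction. Of the writer partners and related enzymes, 10 of 11 assessed were at least 4-fold lower in WT and 17 of 18 in KO, where 41.6% and 49.8% of all genes were. The exception in both was Alkbh3, a demethylase of alkylated nucleic acids, at 42.6 CPM (33.4 to 53.6) in WT spermatogonia-like and 117 CPM (113 to 121) in WT elongating spermatid-like cells. Of the m6A readers, the proteins that bind the mark, 9 of 11 were in WT and 10 of 12 in KO, beside the same shares of all genes. The exceptions in both were Ythdf3 and Igf2bp3. Ythdf3 was still lower late, with a log2 ratio of -1.19 (-1.67 to -0.67) in WT and -1.91 (-2.23 to -1.60) in KO. Igf2bp3 was at 56.0 CPM (45.4 to 68.4) and 335 CPM (329 to 342) in the WT classes. Several genes of both lists, Virma and Ythdc2 among them, also reached the minimum only through the spermatogonia-like cells. In KO most of the assessed partners and related enzymes did so. The counts of both lists thus have no weight beyond the single ratios either. With Alkbh3 and Igf2bp3 higher, Fto was thus not alone in the pathway in being kept or higher late in spermatid development.

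**Figure D4:**
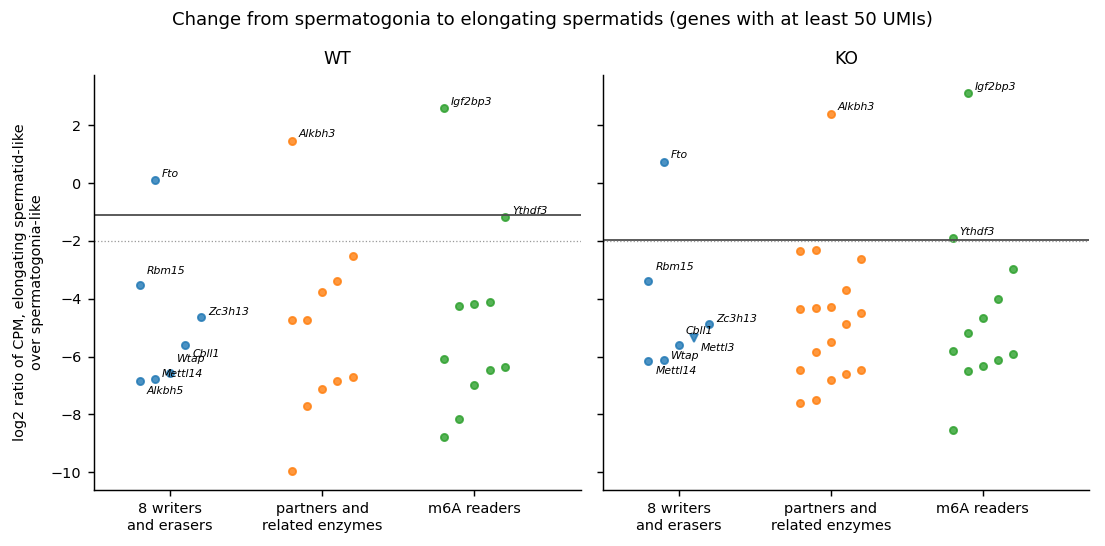
Log2 ratio of CPM in elongating spermatid-like over spermatogonia-like cells (vertical axis) for the 8 genes and the 2 pathway lists, each point a gene with at least 50 UMIs in both classes together, in WT (left) and KO (right); a triangle is an upper bound where the later count was 0, the dotted line is a 4-fold decrease and the solid line the median of all genes. Fto lies at 0.10 in WT and 0.73 in KO, above every other of the 8 genes, which lie at -3.37 or lower.

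Between the genotypes, the pooled germ cells gave higher levels of the writers in KO. Zc3h13 was at 7.94 CPM in WT and 30.6 CPM in KO, a log2 ratio of 1.95 (1.82 to 2.08). Wtap was at 2.55 and 9.31 CPM, 1.87 (1.64 to 2.11), Mettl14 at 2.26 and 7.37 CPM, 1.71 (1.46 to 1.96), and Mettl3 at 0.726 and 1.48 CPM, 1.03 (0.54 to 1.52). Cbll1 (0.53) and Rbm15 (0.49) differed less, and Fto was at 33.9 CPM in WT and 34.0 CPM in KO, a log2 ratio of 0.00 (-0.08 to 0.08). Of the 7 genes other than Alkbh5, 4 were at least 1.5-fold higher and 0 lower, beside 35.4% of 19644 genes higher and 5.94% lower. The median of the 7 was 1.03 and that of all genes 0.28.

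The mix of stages also differed between the libraries, and its part in the pooled ratios was not tested. Spermatogonia-like cells were 191 WT cells, 3.42% of the germ cells, and 1064 KO cells, 20.2%. Elongating spermatid-like cells were 49.3% of the germ cells in WT and 31.1% in KO. With equal weight per germ cell cluster the median ratio of the 7 genes was 0.14, and the ratio was 0.64 for Zc3h13, 0.47 for Wtap, 0.31 for Mettl14 and -0.89 for Mettl3. The Mettl3 value gives full weight to the early spermatocyte-like cells, with 4 of its UMIs in WT and 4 in KO. The 4 genes past 1.5-fold in the pool had 30.2% to 36.6% of their WT UMIs in spermatogonia-like cells, and the other 3 had 1.48% (Fto), 5.82% (Cbll1) and 7.86% (Rbm15).

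Within spermatogonia-like cells 0 of the 7 genes were 1.5-fold higher and 0 lower, beside 10.8% of 10909 genes higher and 15.3% lower. The median was -0.02. Mettl14 had a log2 ratio of -0.02 (-0.40 to 0.39), Fto -0.10 (-0.60 to 0.43), Rbm15 -0.09 (-0.57 to 0.41) and Cbll1 0.07 (-0.35 to 0.51). Wtap had 0.21 (-0.14 to 0.57) and Mettl3 -0.39 (-1.13 to 0.43). Only the interval of Zc3h13, 0.45 (0.24 to 0.66), lay above 0 here. The Zc3h13 ratio was 0.28 (0.07 to 0.50) with doublets taken out and 0.29 (0.05 to 0.53) at the finer resolution of 0.8. It was 0.37 to 0.49 under the other alternatives. Doublets were called in 14.7% of these cells in WT and 9.87% in KO. A finer clustering split off 14 WT and 207 KO cells led by Afp, Upp1 and Sall4, in which Zc3h13 was at 172 CPM (102 to 272) in WT and 212 CPM (191 to 235) in KO. In the larger finer cluster, led by Crabp1 and Cenpa (128 WT and 660 KO cells), it was at 136 CPM (115 to 159) and 155 CPM (144 to 166).

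Zc3h13 had a higher level in KO in most germ cell stages. The log2 ratio in early spermatocyte-like cells was 0.98 (0.41 to 1.61) from 28 WT and 185 KO UMIs. Late spermatocyte-like cells had 3.93 CPM in WT and 6.54 CPM in KO, 0.73 (0.21 to 1.26). Within them the Piwil1 cluster had 0.55 (-0.05 to 1.15) and the Pabpc6 cluster 0.33 (-0.91 to 1.55), both below the class value. The Piwil1 cluster, with the higher Zc3h13 level, held 244 of 741 WT and 290 of 684 KO cells of the class. The part of this mix in the class ratio was not tested. Round spermatid-like cells had 5.19 and 7.53 CPM, 0.54 (0.23 to 0.84), and in elongating spermatid-like cells at 5.12 and 5.98 CPM, 0.23 (-0.14 to 0.59). The interval lay above 0 in the first 4 germ cell classes and across 0 in the last, where the median of all genes was 0.22 and the Fam71b and Prss58 clusters had -0.34 (-0.79 to 0.11) and 0.01 (-0.80 to 0.80). Without integration the round spermatid-like ratio was 0.24 (-0.08 to 0.56) and the elongating spermatid-like ratio 0.66 (0.33 to 0.98). With over 1000 genes per cell no early spermatocyte-like class was formed. The late spermatocyte-like class then had 778 WT and 804 KO cells, beside 741 and 684 at the main settings. Its Zc3h13 UMIs were 83 and 258, beside 55 and 74. The ratio of 1.86 (1.50 to 2.24) there is thus for a different set of cells and cannot be set beside 0.73. Wtap had ratios above 0 in all 5 classes, 0.18 to 0.82, each with an interval across 0. Its elongating spermatid-like ratio came from 15 WT and 14 KO UMIs, below the minimum. With doublets taken out its round spermatid-like ratio was -0.07 (-0.75 to 0.60).

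The counts over the 7 genes were small in these stages. In early spermatocyte-like cells 2 of 3 assessed genes, Zc3h13 and Wtap, were 1.5-fold higher and 0 lower, beside 10% of all genes higher and 9.29% lower. The Wtap ratio there was 0.82 (-0.21 to 2.02) from 9 WT and 53 KO UMIs. These genes reached 50 UMIs mostly through the KO, and genes below that minimum were lower in KO, Cbll1 at -0.79 (-1.77 to 0.25) from 14 and 27 UMIs and Mettl3 at -1.74 (-4.16 to 0.68) from 4 and 4, so the count has no weight on direction. In late spermatocyte-like cells 2 of 6, Zc3h13 and Mettl14, were higher and 0 lower, beside 10.3% and 8.25%. Cbll1 stayed below 1.5-fold there, but its interval lay above 0, with 26.9 CPM in WT and 35.2 CPM in KO, 0.39 (0.18 to 0.59). Its ratio was 0.42 (0.08 to 0.76) in the Piwil1 and 0.40 (0.13 to 0.66) in the Pabpc6 cluster. Mettl14 was at 4.72 CPM in WT and 7.25 CPM in KO, 0.62 (0.13 to 1.11), and by cluster 0.63 (-0.02 to 1.31) in the Piwil1 and 0.37 (-0.40 to 1.13) in the Pabpc6 cluster. In round spermatid-like cells 0 of 5 were higher and 0 lower, beside 13.9% and 6.14%. In elongating spermatid-like cells 0 of 3 were higher and 0 lower, beside 25.2% and 5.77%.

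Fto differed between the libraries in both directions, depending on the cluster. Its log2 ratio was -0.10 (-0.41 to 0.21) in late spermatocyte-like cells, with -0.62 (-1.23 to -0.03) in the Piwil1 cluster from 61 WT and 41 KO UMIs and 0.21 (-0.16 to 0.58) in the Pabpc6 cluster. It was -0.19 (-0.30 to -0.09) in round spermatid-like cells, with -0.33 (-0.50 to -0.16) in the Tssk5 cluster. Elongating spermatid-like cells had 24.9 CPM in WT and 36.0 CPM in KO, 0.53 (0.38 to 0.68). By cluster, the Fam71b cluster had a ratio of 0.14 (-0.10 to 0.38), the Tnp1 cluster -0.10 (-0.56 to 0.34) and the Spem1 cluster -0.19 (-0.78 to 0.37). The Prss58 cluster alone had an interval above 0, with 20 CPM (17.4 to 22.9) in WT and 35.7 CPM (31.7 to 40.2) in KO, a ratio of 0.84 (0.57 to 1.10) where the median of all genes was 0.06. The 3 finer clusters that made up this cluster had ratios of 0.85 (0.46 to 1.25), 0.62 (0.06 to 1.17) and 0.80 (0.30 to 1.31). They divide the UMIs of this 1 cluster, which was picked for its ratio, so they are not separate support. The single clusters were chosen for description after their values had been seen.

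Among somatic cells the WT sums were small. In Leydig-like cells (94 WT and 1168 KO cells) 3 of 6 assessed genes were 1.5-fold higher and 0 lower by the sums, beside 15.3% of all genes higher and 21.6% lower. The 12 WT and 268 KO UMIs of Zc3h13 gave 11.6 and 26.1 CPM, a log2 ratio of 1.18 (0.35 to 2.15). Wtap was at 14.5 and 23.0 CPM, 0.67 (-0.08 to 1.53), and Mettl14 at 3.86 and 6.93 CPM, 0.85 (-0.57 to 2.76). All 6 reached 50 UMIs through the KO, and Mettl3, with 5 and 21 UMIs, was below the minimum at -1.23 (-2.68 to 0.53), so the count has no weight on direction. Of the 6 intervals only that of Zc3h13 lay above 0. Fto (0.09), Cbll1 (-0.03) and Rbm15 (0.43) had intervals across 0.

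Among Sertoli-like cells (49 WT and 482 KO cells) 5 of 6 assessed genes were 1.5-fold higher and 0 lower, but so were 57.8% of 8679 genes, while 17.6% were lower. The log2 ratio of Zc3h13 was 2.82 (1.45 to 4.71) from 4 WT and 289 KO UMIs, and that of Mettl14 2.86 (0.33 to 8.18) from 1 and 74. Wtap was at 17.2 and 35.6 CPM, 1.05 (0.04 to 2.28), and Fto at 17.2 and 16.0 CPM, -0.11 (-1.16 to 1.16). All 6 reached 50 UMIs through the KO, and the median of all genes was itself 0.80 in these cells. Doublets were called in 0% of the WT and 8.3% of the KO cells, mitochondrial UMIs were 8.09% and 12.4%, and Leydig markers were at a median of 0.0713% and 1.24% of their own level. Elongating spermatid markers made up 15% of the UMIs of the WT Sertoli-like cells and 3.3% of those of the KO. All 26 of these markers were present there, at 38.3% to 64.7% of their own level in WT and 11.7% to 17% in KO, and their part in the differences was not tested. Macrophage-like and endothelial-like cells had too few UMIs for a ratio of any of the 7 genes.

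The 2 pathway lists were read in the same way. In spermatogonia-like cells 0 of 17 partners and related enzymes were 1.5-fold higher and 1 lower, and 0 of 12 readers were higher and 3 lower, where 10.8% of all genes were higher and 15.3% lower. In the pooled germ cells 10 of 18 partners and 9 of 13 readers were higher, and 0 and 1 lower, where 35.4% of all genes were higher and 5.94% lower. Virma, the scaffold of the writer complex, was at 33.8 CPM (25.7 to 43.8) in WT and 33.9 CPM (30.1 to 38.1) in KO spermatogonia-like cells, a log2 ratio of 0.00 (-0.41 to 0.44). Mat2a, which makes the methyl donor, had 0.15 (-0.02 to 0.31) there.

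**Figure D5:**
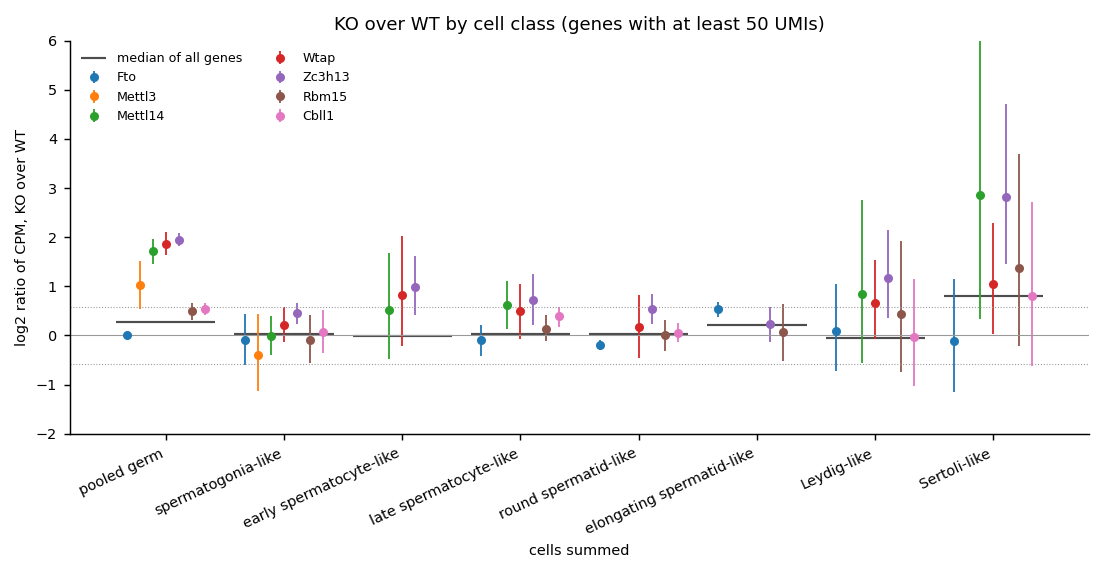
Log2 ratio of CPM, KO over WT (vertical axis), of the 7 genes other than Alkbh5 in the pooled germ cells and each class with an assessed gene, with exact 95% conditional intervals for counting error; dotted lines mark 1.5-fold, black bars the median of all genes, and 1 interval is cut at the upper edge (Mettl14 in Sertoli-like cells). Zc3h13, Wtap and Mettl14 are at 1.71 to 1.95 in the pooled germ cells and at -0.02 to 0.45 in spermatogonia-like cells, where the KO held 1064 cells and the WT 191.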

How the data were processed

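The authors deposited 1 matrix of counts per library, with genes as rows, cell barcodes as columns and UMI numbers as values that had not been normalized. Per the methods and the submitters' processing notes, the libraries were made with the GEXSCOPE kit, and reads were checked with FastQC 0.11.7, trimmed with fastp, aligned with STAR 2.5.3a and counted with featureCounts 1.6.2. The methods name the human build GRCh38, whereas the genes carry mouse symbols. How the deposited barcodes were chosen and which strand was counted are not given in the sources used here.

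Totals were 80283221 UMIs (WT) and 82056760 UMIs (KO), and a gene missing from 1 matrix was taken as 0. Following the study, cells with over 500 genes were kept (all were), and 2000 variable features, 20 anchor dimensions, 30 principal components and resolution 0.3 were used in R 4.3.3 with Seurat 5.3.0. Clusters took the name of the class whose markers stood highest over other cells on average, given at least 3 markers with a UMI in 10% of the cells and a fold of 2. The thresholds for names were set with the matrices at hand. Scrublet (scanpy 1.11.5, expected doublet rate 0.06) was run per library, and the doublets it called were kept. UMIs were summed per library and class in Python 3.11.15 with numpy 2.4.6, pandas 2.3.3 and scipy 1.17.1. Because each genotype is 1 library, no test was made. Sums have exact 95% Poisson intervals, and ratios the exact conditional interval of 2 sums. A ratio was assessed where its 2 sums held 50 UMIs or more, against a threshold of 1.5-fold between genotypes or 4-fold between stages. The interval code was checked on simulated data. Positions came from GENCODE vM21 and promoters from RefSeq.

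The rule for named genes took the 8 genes, genes of the 2 pathway lists, and for each of the 8 the 3 genes with the highest WT correlation over clusters of at least 20 cells. For Mettl3, 1 of these 3 is not reported here. The 8 genes, the lists and the markers were chosen with earlier results of these data known. As alternatives, cells needed over 1000 genes, the resolution was 0.8, the integration was skipped, doublets were taken out, mitochondrial and ribosomal genes were left out of the totals, clusters had the same weight, the fold was 2, the minimum was 20 UMIs, levels were UMIs per cell, and stages were compared in KO.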

Additional observations from a re-analysis of the deposited data

How the results depend on the processing

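No paired analysis was possible because each genotype had 1 library. The Alkbh5 ratio over all cells was -8.09 to -6.86 under each alternative run for it. The count of genes lower in elongating spermatid-like than spermatogonia-like cells was 6 under each WT alternative. It was also 6 in KO, with Mettl3 in place of Alkbh5. Shares of all genes were taken only at the main settings, 41.6% in WT and 49.8% in KO. Most of these genes reached the minimum only through the spermatogonia-like cells, so the constant count has no weight. The count of gene and class pairs past 1.5-fold, 12 of 36 and all higher in KO, was 11 of 33 to 16 of 40 under other cell filters and clusterings, with 2 of the 16 at resolution 0.8 lower in KO. It moved to 5 with a fold of 2 and to 20 of 48 with a minimum of 20 UMIs, of which 4 were lower in KO. Of the 12 pairs, 5 were in Sertoli-like, 3 in Leydig-like, 2 in early spermatocyte-like and 2 in late spermatocyte-like cells. The Sertoli-like and Leydig-like pairs reached the minimum through the KO, and the early spermatocyte-like pairs mostly so. In Sertoli-like cells 57.8% of all genes were at least 1.5-fold higher in KO. The pooled count was not set beside a share of all genes, so it has no weight on direction. Early spermatocyte-like cells formed no cluster with over 1000 genes per cell.

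Weighting the germ cell clusters equally changed the pooled KO over WT values most. The median of the 7 genes other than Alkbh5 moved from 1.03 to 0.14, Mettl14 from 1.71 to 0.31, Wtap from 1.87 to 0.47, Zc3h13 from 1.95 to 0.64, Rbm15 from 0.49 to 0.14 and Cbll1 from 0.53 to -0.01. Mettl3 reversed from 1.03 to -0.89. The median of all genes moved from 0.28 to 0.07. By its construction this weighting evens out the shares of the germ cell clusters, but not the mix of cells inside a cluster. The part of the stage mix in the pooled ratios was not tested. The weighting also gives the early spermatocyte-like cells, with 4 Mettl3 UMIs in each library, the same weight as the others.

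Depth limits Mettl3 throughout, all of the 8 genes but Fto, Zc3h13 and Rbm15 in KO over WT ratios of elongating spermatids, and the WT somatic classes, where Mettl14 in Sertoli-like cells rests on 1 WT UMI. With 1 library per genotype, differences between animals, preparations and genotypes cannot be told apart.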

Other observations

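In the finer clustering, the early spermatocyte-like cells numbered 67 in WT and 267 in KO and also took in cells with high Stra8, the gene that marks entry into meiosis, at 1700 CPM (1600 to 1820) in WT and 1500 CPM (1450 to 1560) in KO. Zc3h13 was at 132 CPM (103 to 166) in WT and 236 CPM (214 to 259) in KO in these cells, and Cbll1 at 40.9 CPM (25.6 to 61.9) and 25.6 CPM (18.8 to 34.0). Mettl14 was at 55.8 CPM (37.6 to 79.6) and 62.0 CPM (51.2 to 74.5), and Wtap at 55.8 CPM (37.6 to 79.6) and 59.3 CPM (48.7 to 71.5). In the spermatogonia-like cluster led by Crabp1 and Cenpa, Alkbh5 was at 76.1 CPM (60.6 to 94.4) in WT and had 0 UMIs in KO.

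Igf2bp3, an m6A reader, was lower in KO than in WT in spermatogonia-like cells. It was at 28.8 CPM (25.3 to 32.7) beside 56.0 CPM (45.4 to 68.4), a log2 ratio of -0.96 (-1.31 to -0.60). In these cells 15.3% of all genes were at least 1.5-fold lower in KO. Igf2bp3 was much higher in elongating spermatid-like cells of both libraries. Elongating spermatid markers made up 2.91% of the UMIs of the spermatogonia-like cells in WT and 1.67% in KO. The part of such RNA in the Igf2bp3 difference was not tested. Ythdf2, a reader that directs marked RNA to decay, was at 4.89 CPM (4.14 to 5.73) in WT and 12.2 CPM (10.7 to 13.9) in KO elongating spermatid-like cells, a log2 ratio of 1.32 (1.02 to 1.63), in a class where 25.2% of all genes were at least 1.5-fold higher in KO. Both genes were named after their values had been seen.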
